A study of Oryza sativa with 18 samples.

Results

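The genes described here are rice MAP kinases, the last enzymes of the mitogen-activated protein kinase cascade. They were chosen by name, by looking for MPK3, MPK4, MPK6, MPK7, MPK12, MPK13, MPK14 and MPK17 among the symbols and synonyms of the genes on the array. The choice was made with earlier results of these data known. The 8 names, every one of them a synonym of a gene whose symbol is a LOC number, led to 9 genes, because MPK3 is a synonym of 2 genes. Of these, 8 genes had a probe set assigned to them alone, out of 17905 such genes on the array. MPK12 (LOC4342017, also called BWMK1) had no single-gene probe set in the annotation used here and was not analysed. Each of the other 8 had exactly 1 single-gene probe set, and all 8 lay at or above the array median on all 18 arrays, so all 8 passed the filter on low values.

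In a MAP kinase cascade a MAP kinase kinase kinase phosphorylates a MAP kinase kinase, which in turn phosphorylates a MAP kinase. The MAP kinase then phosphorylates transcription factors, enzymes and other proteins. In plants these cascades carry signals from receptors that sense microbes, wounding and feeding insects, and from hormones and abiotic stress. Their activity is set mainly by phosphorylation, which an array does not measure, so the values below are transcript levels and not kinase activities.

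Leaf sheath of rice plants at the four-leaf stage was compared between the variety 9311, which the labels call susceptible to the brown planthopper (BPH, an insect that sucks phloem sap), and NIL-BPH9, which they call resistant. NIL-BPH9 is by its name a near-isogenic line for the planthopper resistance gene BPH9. The 6 groups were uninfested plants at 0 h and plants infested for 3 h or 6 h, of each line, with 3 arrays labelled as biological replicates in each group and 18 arrays in all. The labels do not say whether replicates came from separate plants, pools or days, so p-values measure only the spread between these samples. Both lines were grown alike in a growth chamber, and all 0 h plants were without insects. Uninfested plants at 3 h and 6 h were not analysed here, so infestation and time of day cannot be told apart.

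Values are log2 MAS5 signals as deposited, and a change is a difference of group means on the log2 scale with its standard error (SE) from limma over 33094 tested probe sets, adjusted by Benjamini-Hochberg. A probe set is called changed at an adjusted p under 0.05, and 3 arrays per group limit the precision. Replicate arrays correlated at 0.956 to 0.967 across probe sets and arrays of different groups at 0.940 to 0.960. Replicate 3 of 9311 at 0 h stood apart on the fourth principal component (6.88% of the variance), at 74.5 against -46.9 to 31.6 for the other arrays. On the second component (9.44%) the same array lay at 33.7, against -17.9 and -13.0 for its replicates. There it was among the 9311 arrays at 6 h, which lay at 27.7 to 34.2. All 6 green tissue markers had group means above the array median in every group, as had all 7 markers of dividing cells and all 4 genes of iron-starved roots. Of 4 seed storage genes 2 or 3 were, and the 1 pollen gene was not in any group. The sheath is bulk tissue, in which fewer cells of a type and less RNA per cell cannot be told apart.

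Of the 96 pairs of a MAP kinase and a comparison, 18 were called, and 0 of them reached 2-fold. Of all tested probe sets, 4.38% to 18.7% were called, depending on the comparison. MPK3/MPK5 was called most often, in 7 of 12 comparisons. MPK13 and MPK3/MAP3 were called in 3 each, MPK7 and MPK14 in 2 each, MPK6 in 1, and MPK4 and MPK17 in 0. The 12 comparisons share the same 6 group means, so several calls of 1 gene are not separate results. In 9311 after 3 h, 3 of the 8 genes rose and 0 fell (14.8% of all tested probe sets were called and 7.61% rose), and in NIL-BPH9 after 3 h 4 rose and 0 fell (14.1% called, 7.61% rose). After 6 h 1 gene had risen in 9311 (7.62% called, 4.29% rose), and in NIL-BPH9 1 had risen and 1 had fallen (18.7% called, with 8.28% up and 10.4% down). The median change of the 8 genes was 0.22 in 9311 and 0.20 in NIL-BPH9 after 3 h, against 0.00 and -0.02 for all tested probe sets. After 6 h it was 0.03 and 0.06, against -0.02 and -0.05. Since the genes were chosen with earlier results of these data known, these counts and medians describe them and are no independent test.

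Counted instead by arrays that did not overlap between the groups compared, 5 of the 8 genes stood apart in 9311 after 3 h (27.3% of all tested probe sets did), 2 after 6 h (21.2%) and 3 between 3 h and 6 h (23.3%). In NIL-BPH9 the counts were 4 (33.3%), 3 (36.7%) and 6 (36.3%). Between the lines they were 2 at each time (26.1% at 0 h, 28.5% at 3 h and 30.9% at 6 h). MPK3/MPK5 was in the count in all of these comparisons but the step from 3 h to 6 h in 9311.

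**Figure D1:**
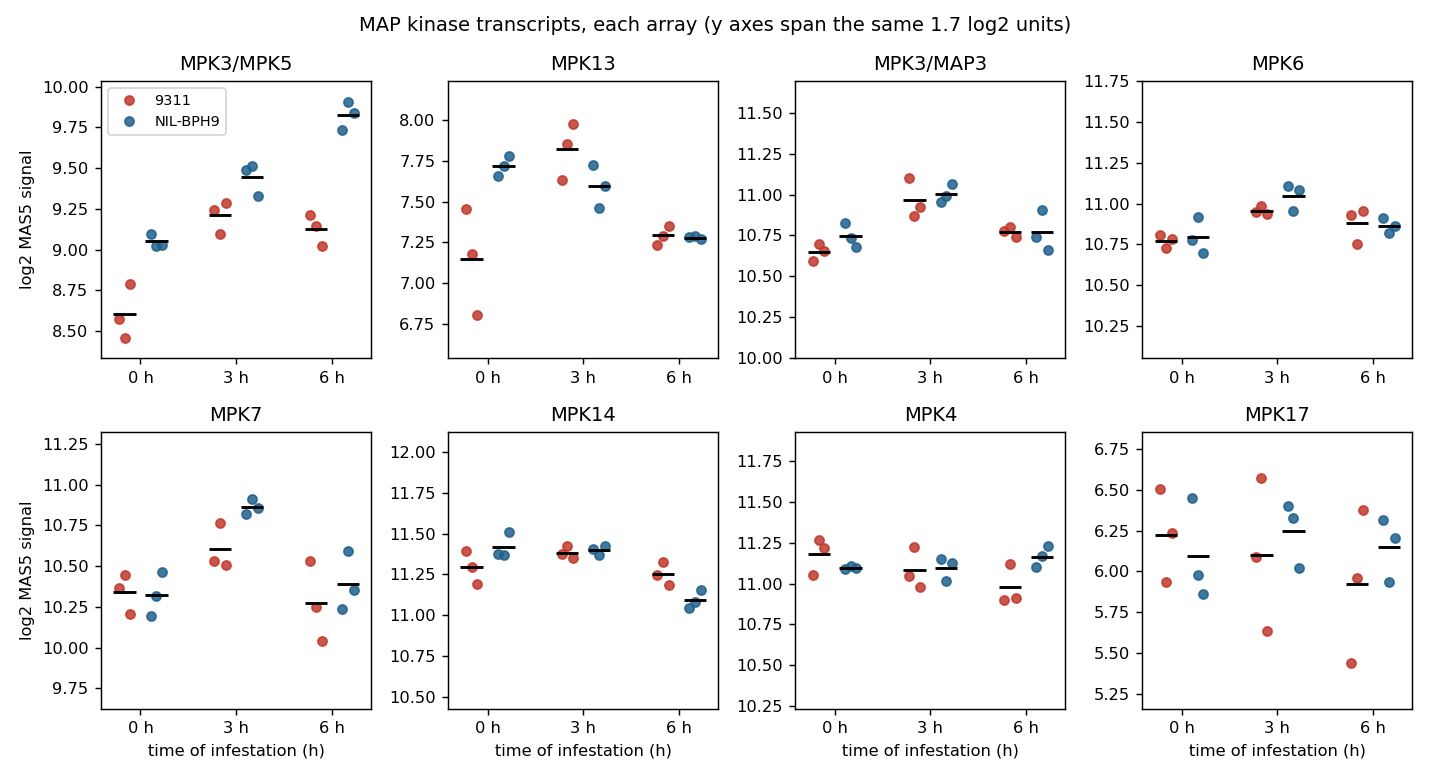
Log2 MAS5 signal (y axis) of each array at 0, 3 and 6 h (x axis) for the 8 MAP kinase genes, with 9311 in red, NIL-BPH9 in blue and a black line at each group's mean of 3 arrays. MPK3/MPK5 lies between 8.46 and 9.91 with NIL-BPH9 at 6 h above all other groups, while the arrays of MPK4 stay between 10.90 and 11.27.

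MPK3/MPK5 (LOC4332475) is the gene known in rice as MAPK5, BIMK1 and MSRMK2, a kinase whose transcript is known to respond to pathogens, wounding and abiotic stress. Its transcript rose in both lines after infestation and was highest in infested NIL-BPH9. In 9311 the 3 arrays read 8.58, 8.46 and 8.79 at 0 h, 9.24, 9.10 and 9.29 at 3 h, and 9.21, 9.15 and 9.02 at 6 h. In NIL-BPH9 they read 9.10, 9.02 and 9.03 at 0 h, 9.49, 9.51 and 9.33 at 3 h, and 9.74, 9.91 and 9.84 at 6 h. In each line all infested arrays lay above all uninfested ones. The lines did not overlap at any time, with NIL-BPH9 the higher at each.

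In 9311 MPK3/MPK5 rose by 0.60 ± 0.09 (SE, 1.52-fold, limma adjusted p = 0.000166) after 3 h and by 0.52 ± 0.09 (adjusted p = 0.00142) after 6 h. In NIL-BPH9 it rose by 0.39 ± 0.09 (adjusted p = 0.00753) after 3 h and by 0.78 ± 0.09 (1.71-fold, adjusted p = 1.05e-05) after 6 h. These 4 changes kept their call when any 1 array was left out. Between 3 h and 6 h the gene rose further in NIL-BPH9, by 0.38 ± 0.09 (adjusted p = 0.00824), a call that was lost without replicate 3 of NIL-BPH9 at 3 h (0.33, adjusted p = 0.0523). In 9311 the step from 3 h to 6 h was -0.08 ± 0.09 (adjusted p = 0.748), with a 95% confidence interval from -0.28 to 0.11. The difference between these steps was 0.47 ± 0.13 with an interval from 0.19 to 0.75, and it missed the threshold (adjusted p = 0.0534). Without replicate 2 of 9311 at 3 h that difference was 0.52 and passed (adjusted p = 0.0471).

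The MPK3/MPK5 signal was 1.36 times as high in uninfested NIL-BPH9 as in uninfested 9311 (log2 0.44 ± 0.09, adjusted p = 0.00303). At 3 h the lines differed by 0.23 ± 0.09 (adjusted p = 0.167, interval 0.04 to 0.43). At 6 h NIL-BPH9 was higher by 0.70 ± 0.09, or 1.63-fold (adjusted p = 3.79e-05), a call kept without any 1 array. The group means ran from 9.83 in NIL-BPH9 at 6 h through 9.44 at 3 h, 9.21 and 9.13 in 9311 at 3 h and 6 h and 9.05 in uninfested NIL-BPH9 to 8.61 in uninfested 9311. In that order the ranges overlapped between 9311 at 3 h and 6 h and between 9311 at 6 h and uninfested NIL-BPH9, and not between other neighbours. The responses of the lines to infestation differed by -0.21 ± 0.13 at 3 h (adjusted p = 0.376, interval -0.49 to 0.07) and by 0.26 ± 0.13 at 6 h (adjusted p = 0.267, interval -0.02 to 0.54). With only the arrays compared in the fit, the calls in 9311 at 6 h (adjusted p = 0.0665) and between the uninfested lines (0.0727) were lost.

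MPK3/MAP3 (LOC4328297) is the other gene that carries the synonym MPK3. Its rise after 3 h was smaller, and its change from 0 h was not called at 6 h in either line, though the 9311 arrays at 6 h still lay above those at 0 h. In 9311 the arrays read 10.60, 10.70 and 10.65 at 0 h, 11.10, 10.87 and 10.92 at 3 h, and 10.78, 10.80 and 10.74 at 6 h. In NIL-BPH9 they read 10.82, 10.73 and 10.68 at 0 h, 10.95, 10.99 and 11.06 at 3 h, and 10.74, 10.91 and 10.66 at 6 h. The 3 h arrays lay above all others of their line, and the lines overlapped at each time.

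MPK3/MAP3 rose in 9311 after 3 h by 0.32 ± 0.07 (adjusted p = 0.00448) and in NIL-BPH9 by 0.26 ± 0.07 (adjusted p = 0.0196). At 6 h it differed from 0 h by 0.12 ± 0.07 in 9311 (adjusted p = 0.367, interval -0.03 to 0.27) and by 0.02 ± 0.07 in NIL-BPH9 (adjusted p = 0.861, interval -0.13 to 0.17). From 3 h to 6 h it fell by 0.23 ± 0.07 in NIL-BPH9 (adjusted p = 0.0314), and in 9311 the step was -0.19 ± 0.07 (adjusted p = 0.152, interval -0.34 to -0.04). The rise in NIL-BPH9 was lost without replicate 2 or 3 at 0 h (0.25 and 0.22, adjusted p = 0.0548 and 0.0884) or replicate 2 or 3 at 3 h (0.26 and 0.23, adjusted p = 0.0512 and 0.086). The later fall was lost without replicate 2 or 3 at 3 h (-0.24 and -0.20, adjusted p = 0.0747 and 0.127) or replicate 1 or 3 at 6 h (-0.22 and -0.18, adjusted p = 0.0964 and 0.155). Centring each array on its median also ended both calls in NIL-BPH9 (0.29, adjusted p = 0.0708, and -0.14, adjusted p = 0.429), the later fall was lost without the filter or the intensity trend (adjusted p = 0.053 and 0.0594), and the rise in 9311 with only the arrays compared (adjusted p = 0.0501). The line contrasts at 0, 3 and 6 h were 0.10, 0.04 and 0.00, each ± 0.07, with intervals reaching from -0.15 to 0.25 over the 3 times.

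MPK6 (LOC4349225) and MPK7 (LOC4339633) also rose in NIL-BPH9 after 3 h. The numbering is not that of Arabidopsis: in the gene table MPK7 carries the synonym MAPK6, and so does MPK1, which also carries SIPK. In NIL-BPH9 the MPK7 arrays read 10.19, 10.32 and 10.46 at 0 h, 10.82, 10.91 and 10.86 at 3 h, and 10.24, 10.59 and 10.35 at 6 h. In 9311 they read 10.36, 10.45 and 10.21 at 0 h, 10.53, 10.77 and 10.51 at 3 h, and 10.53, 10.25 and 10.04 at 6 h. The NIL-BPH9 arrays at 3 h lay above every other MPK7 array of either line.

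MPK7 rose by 0.54 ± 0.11 in NIL-BPH9 after 3 h (1.45-fold, adjusted p = 0.00304) and fell by 0.47 ± 0.11 from 3 h to 6 h (adjusted p = 0.00795). That fall missed the threshold without replicate 1 of NIL-BPH9 at 6 h (-0.39, adjusted p = 0.0506) and under median centring of the arrays (-0.38, adjusted p = 0.0966). In 9311 the MPK7 change after 3 h was 0.26 ± 0.11 (adjusted p = 0.151, interval 0.02 to 0.50) and the step to 6 h was -0.33 ± 0.11 (adjusted p = 0.121, interval -0.57 to -0.09). Without replicate 1 of 9311 at 6 h that step was -0.46 and passed (adjusted p = 0.0261). At 6 h MPK7 differed from 0 h by -0.07 ± 0.11 in 9311 and 0.07 ± 0.11 in NIL-BPH9. The 3 h responses of the lines differed by 0.28 ± 0.16 (adjusted p = 0.328, interval -0.06 to 0.62), so no line difference in the response was called.

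MPK6 read 10.78, 10.92 and 10.70 at 0 h and 11.11, 10.96 and 11.08 at 3 h in NIL-BPH9. In 9311 it read 10.81, 10.73 and 10.78 at 0 h and 10.95, 10.98 and 10.94 at 3 h. The 3 h arrays lay above the 0 h arrays in each line, and at 6 h the gene was between 10.75 and 10.96 over both lines. MPK6 rose by 0.25 ± 0.07 in NIL-BPH9 (adjusted p = 0.0167), and its change in 9311 was 0.18 ± 0.07 (adjusted p = 0.0777, interval 0.04 to 0.33). The call in NIL-BPH9 was lost without replicate 1 or 3 at 0 h (0.24 and 0.20, adjusted p = 0.0518 and 0.0948) or replicate 1 or 3 at 3 h (0.22 and 0.23, adjusted p = 0.0793 and 0.0652), and with centring (0.28, adjusted p = 0.0613). The test of the line difference gave 0.07 ± 0.10 (adjusted p = 0.738, interval -0.13 to 0.27).

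**Figure D2:**
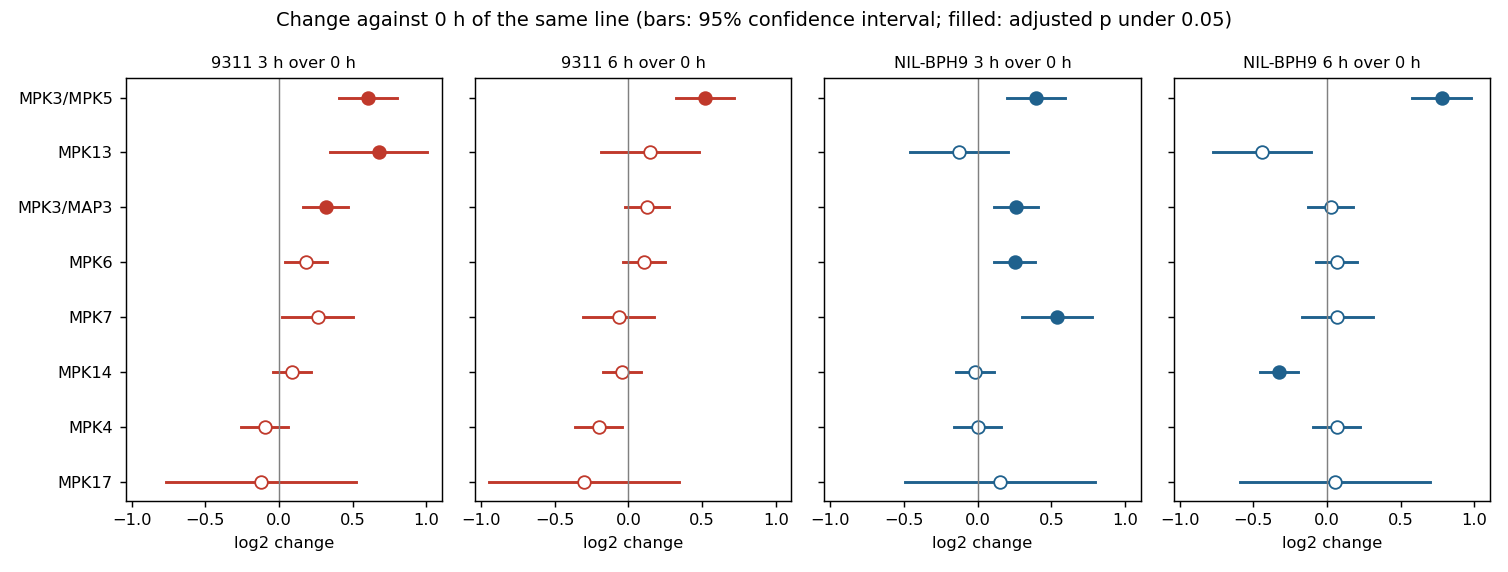
Log2 change against 0 h of the same line (x axis) for each MAP kinase gene (y axis) after 3 h and 6 h in 9311 (red) and NIL-BPH9 (blue). Points are differences of group means, bars are 95% confidence intervals and filled points passed an adjusted p of 0.05. MPK3/MPK5 is filled in all 4 panels, and MPK3/MAP3 is filled at 3 h in both lines and open at 6 h.

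MPK13 (LOC4328223) is the rice gene BIMK2, named for its induction by benzothiadiazole, a chemical inducer of plant defence. It was the only one of the 8 genes whose response was called different between the lines, with a rise in 9311 and none called in NIL-BPH9. In 9311 the arrays read 7.45, 7.18 and 6.80 at 0 h, 7.63, 7.85 and 7.98 at 3 h, and 7.23, 7.29 and 7.35 at 6 h. In NIL-BPH9 they read 7.66, 7.72 and 7.78 at 0 h, 7.72, 7.46 and 7.60 at 3 h, and 7.28, 7.29 and 7.27 at 6 h. Uninfested 9311 was the lowest group by its mean and also the most spread (SD 0.33, n = 3), and all its arrays lay below those of uninfested NIL-BPH9.

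MPK13 rose by 0.68 ± 0.16 in 9311 after 3 h (adjusted p = 0.00586), with values between 0.50 and 0.83 when 1 array was left out, and missed the threshold with only the arrays compared in the fit (adjusted p = 0.0869). In NIL-BPH9 the change after 3 h was -0.12 ± 0.16 (adjusted p = 0.684, interval -0.46 to 0.21). The difference between these responses was -0.80 ± 0.22 (adjusted p = 0.0265), and 10.5% of tested probe sets were called in this comparison, with 4.72% lower in NIL-BPH9. Uninfested NIL-BPH9 was higher than uninfested 9311 by 0.57 ± 0.16 (1.49-fold, adjusted p = 0.0188), and at 3 h the lines differed by -0.23 ± 0.16 (adjusted p = 0.504, interval -0.56 to 0.11). At 6 h all 6 arrays of both lines lay between 7.23 and 7.35, and the line contrast was -0.01 ± 0.16 (adjusted p = 0.974, interval -0.34 to 0.32). Against 0 h, MPK13 at 6 h was 0.15 ± 0.16 in 9311 (adjusted p = 0.689) and -0.44 ± 0.16 in NIL-BPH9 (adjusted p = 0.0608, interval -0.77 to -0.11), which passed without the intensity trend (adjusted p = 0.0421).

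Both MPK13 line calls depended on single arrays and on the settings. Without replicate 3 of 9311 at 0 h, the array that stood apart from the rest, the difference of the 3 h responses was -0.63 (adjusted p = 0.0573) and the contrast of the uninfested lines was 0.40 (adjusted p = 0.0978). The response difference was also lost without replicate 2 (-0.78, adjusted p = 0.0579) or 3 (-0.72, 0.0737) of 9311 at 3 h, replicate 3 of NIL-BPH9 at 0 h (-0.77, 0.0589) and replicate 2 (-0.73, 0.0694) or 3 (-0.80, 0.0503) of NIL-BPH9 at 3 h. The contrast of the uninfested lines was also lost without replicate 3 of NIL-BPH9 at 0 h (0.54, adjusted p = 0.0639). Without replicate 1 of 9311 at 0 h the difference of the 6 h responses, -0.59 ± 0.22 over all arrays (adjusted p = 0.123), was -0.74 and passed (adjusted p = 0.0329). With centring the adjusted p was 0.065 for the response difference and 0.0684 for the uninfested lines, and with only the arrays compared it was 0.0638 and 0.156. The direction of these values was the same in every fit that left out 1 array.

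**Figure D3:**
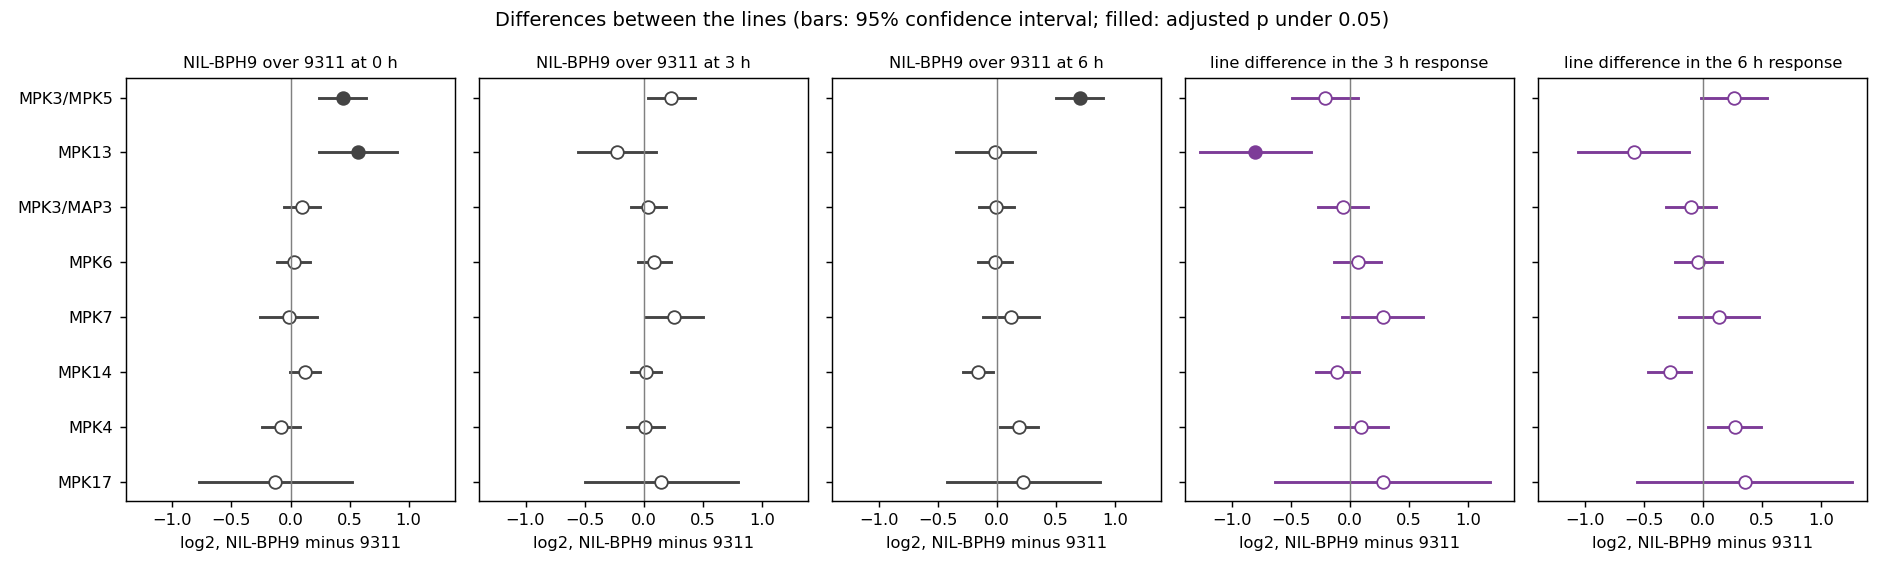
Difference between the lines on the log2 scale (x axis, NIL-BPH9 minus 9311) for each MAP kinase gene (y axis) at 0, 3 and 6 h (grey) and in the change from 0 h to 3 h and to 6 h (purple). Bars are 95% confidence intervals and filled points passed an adjusted p of 0.05. MPK3/MPK5 is filled at 0 h and 6 h, and MPK13 at 0 h and in the 3 h response.

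MPK14 (LOC9267958) was lower in NIL-BPH9 after 6 h. Its arrays in that line read 11.38, 11.37 and 11.51 at 0 h, 11.41, 11.37 and 11.42 at 3 h, and 11.04, 11.08 and 11.16 at 6 h. In 9311 they read 11.40, 11.29 and 11.19 at 0 h, 11.37, 11.42 and 11.35 at 3 h, and 11.24, 11.32 and 11.19 at 6 h. The 3 arrays of NIL-BPH9 at 6 h lay below all other arrays of either line.

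MPK14 fell by 0.32 ± 0.06 in NIL-BPH9 between 0 h and 6 h (adjusted p = 0.00112) and fell by 0.31 ± 0.06 between 3 h and 6 h (adjusted p = 0.00152). These falls were smaller, -0.20 (adjusted p = 0.185) and -0.22 (adjusted p = 0.203), when every array was centred on its median, a scaling that moved the median change of all probe sets in NIL-BPH9 after 6 h from -0.05 to 0.06. In 9311 the 6 h change was -0.04 ± 0.06 (adjusted p = 0.788, interval -0.17 to 0.09). The difference of the 6 h responses was -0.28 ± 0.09 (adjusted p = 0.0551, interval -0.46 to -0.10), and it passed without replicate 1 of 9311 at 0 h (-0.33, adjusted p = 0.0162) or replicate 3 of 9311 at 6 h (-0.32, adjusted p = 0.0473). The line contrast at 6 h was -0.16 ± 0.06 (adjusted p = 0.108, interval -0.29 to -0.03).

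MPK4 (LOC4341956), known in rice as MSRMK3, had 0 calls in 12 comparisons. Its arrays in 9311 read 11.05, 11.27 and 11.22 at 0 h, 11.05, 11.22 and 10.98 at 3 h, and 10.90, 11.12 and 10.91 at 6 h. In NIL-BPH9 they read 11.09, 11.11 and 11.09 at 0 h, 11.15, 11.02 and 11.13 at 3 h, and 11.10, 11.17 and 11.23 at 6 h. All neighbouring groups in the order of the means overlapped. The change in 9311 after 6 h was -0.20 ± 0.08 (adjusted p = 0.123, interval -0.36 to -0.04), and it passed without replicate 1 at 0 h (-0.27, adjusted p = 0.0475) or replicate 2 at 6 h (-0.27, adjusted p = 0.0494). The difference of the 6 h responses was 0.27 ± 0.11 (adjusted p = 0.14, interval 0.04 to 0.49), and it passed without replicate 1 of 9311 at 0 h (0.33, adjusted p = 0.048).

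MPK17 (LOC4339697) also had 0 calls, and its values were the least precise of the 8. Its 18 arrays lay between 5.44 and 6.58, close to the array medians of 5.18 to 5.52, where much of the signal may be background. The SE of a change from 0 h was 0.31, and the intervals over all 12 comparisons reached from -0.94 to 1.26. Small changes of this gene were not detectable with these arrays.

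From 3 h to 6 h, 4 of the 8 genes were called in NIL-BPH9, with 1 higher and 3 lower (14.9% of probe sets called, 7.17% higher and 7.76% lower). In 9311 the count was 0 by limma (5.14% called), with 4 genes at an unadjusted p under 0.05. The median step of the 8 genes was -0.21 in NIL-BPH9 and -0.15 in 9311, against -0.06 and -0.02 for all tested probe sets. Between the uninfested lines 2 genes were called, both higher in NIL-BPH9 (14.4% called, 6.92% higher). At 3 h 0 were called (7.46%), with 2 at an unadjusted p under 0.05, and at 6 h 1 was called, higher in NIL-BPH9 (11.3% called, 5.75% higher). The line differences in the 6 h response and in the step from 3 h to 6 h gave 0 calls by limma (7.03% and 4.38% of probe sets called). In the first, 3 genes and at least 5093 probe sets had an unadjusted p under 0.05. In the second, 1 gene and between 1511 and 5505 probe sets had one.

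Other marker genes moved in the same comparisons. The 7 genes of dividing cells, which encode replication proteins and a histone, all fell in 9311 after 3 h, when MPK3/MPK5, MPK3/MAP3 and MPK13 rose. Their summed level there went from 13.70 to 13.84 at 0 h to 12.20 to 12.29 at 3 h and 12.90 to 13.01 at 6 h. In NIL-BPH9 it was 12.69 to 12.73 at 0 h, 12.48 to 12.52 at 3 h and 12.80 to 12.94 at 6 h, with 4 of 7 genes falling after 3 h. Between the uninfested lines, where MPK3/MPK5 and MPK13 were higher in NIL-BPH9, all 7 were lower there. In the line difference of the 3 h response, where MPK13 was called, 6 of 7 were higher in NIL-BPH9. Of 6 green tissue markers, 4 fell in 9311 after 3 h, where their summed level went from 16.36 to 16.64 at 0 h to 16.16 to 16.21 at 3 h. The summed level of 4 iron-starved root genes was 11.02 to 11.14 in 9311 at 0 h, 11.27 to 11.52 at 3 h and 11.86 to 11.98 at 6 h, with 3 of 4 genes rising by 6 h, when MPK3/MPK5 rose. In NIL-BPH9 it was 12.56 to 12.67 at 0 h, 12.60 to 12.70 at 3 h and 12.42 to 12.43 at 6 h, and 2 of 4 genes, NAS1 and NAS2, were called higher there than in 9311 at 0 h. Of all tested probe sets, 14.8% and 7.62% were called in 9311 after 3 h and 6 h, and 14.1% in NIL-BPH9 after 3 h. The shares were 14.4% between the uninfested lines and 10.5% in the line difference of the 3 h response. The mean log2 ratio of 3′ to 5′ signal over 6 control pairs, a sign of RNA integrity, was 1.43 ± 0.21 (SD, n = 3) in 9311 at 0 h, 1.72 ± 0.08 at 3 h and 1.96 ± 0.47 at 6 h. In NIL-BPH9 it was 1.52 ± 0.34, 1.64 ± 0.41 and 1.66 ± 0.25. The part of these in the MAP kinase values was not tested.

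Of the other rice MAP kinases, 7 had a single-gene probe set (MPK1, MPK2, MPK8, MPK10, MPK11, MPK15 and MPK16), and 0 of 7 were called in either line after 3 h by limma. Of all tested probe sets, 14.8% were called in 9311 and 14.1% in NIL-BPH9 at that time. MPK11 fell by 0.71 ± 0.16 in NIL-BPH9 after 6 h (adjusted p = 0.00411) and was the 1 of 7 called there (18.7% of probe sets were). MPK2 was higher in uninfested NIL-BPH9 than in uninfested 9311 by 0.49 ± 0.12 (adjusted p = 0.00733). Its 3 h response was lower in NIL-BPH9 by 0.59 ± 0.17 (log2 -0.59, adjusted p = 0.0268), as was that of MPK13. The MPK2 response call was lost without replicate 2 of 9311 at 3 h (-0.56, adjusted p = 0.0667), replicate 1 of NIL-BPH9 at 0 h (-0.57, 0.0545) or replicate 3 of NIL-BPH9 at 3 h (-0.48, 0.0775), with centring (adjusted p = 0.0618) and with only the arrays compared (adjusted p = 0.0522). The last setting also ended the call between the uninfested lines (adjusted p = 0.0705). MPK15 was called higher in NIL-BPH9 than in 9311 at 3 h (0.80, adjusted p = 0.0323). MPK10 was called higher at 6 h than at 3 h in NIL-BPH9 (0.23, adjusted p = 0.0193). These calls were lost in 5 of 6 and 3 of 6 fits that left out 1 array. The MPK15 call was also lost with centring (adjusted p = 0.0947) and without the trend (0.0787).

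One step up the cascade, MKK1 was the only MAP kinase kinase with a matched single-gene probe set, and none was matched for MAP kinase kinase kinases. MKK1 rose by 0.29 ± 0.05 in NIL-BPH9 after 6 h (adjusted p = 0.000719) and by 0.21 ± 0.05 from 3 h to 6 h (adjusted p = 0.00668), and its change there after 3 h was 0.07 ± 0.05 (adjusted p = 0.416), while MPK3/MPK5 rose in all 3 of these comparisons. In 9311 it rose by 0.20 ± 0.05 after 3 h (adjusted p = 0.00995) and by 0.20 ± 0.05 after 6 h (adjusted p = 0.0171). The calls in 9311 were lost without replicate 2 at 0 h (0.17 at each time, adjusted p = 0.0637 and 0.0998), and the one at 6 h also without replicate 3 at 6 h (0.19, adjusted p = 0.0629). With only the arrays compared neither passed (adjusted p = 0.115 and 0.206), nor did the one at 3 h with centring (adjusted p = 0.0579). At 6 h MKK1 was higher in NIL-BPH9 than in 9311 by 0.19 (adjusted p = 0.0228). That call was lost in 4 of 6 fits that left out 1 array and with centring (adjusted p = 0.281).

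Upstream of the cascade, 11 genes of chitin and peptidoglycan receptors, coreceptors and early relays were tested. In 9311 after 3 h 0 rose and 2 fell (14.8% of all tested probe sets were called). The falls included LYP4, a lysin-motif receptor-like protein that binds peptidoglycan and chitin, which fell by 0.48 ± 0.10 (adjusted p = 0.00193). In NIL-BPH9 after 3 h 0 of 11 were called (14.1% of probe sets), and after 6 h 2 rose and 1 fell (18.7% called, with 8.28% up and 10.4% down). The rises there were CEBIP, the chitin elicitor-binding protein, by 0.41 ± 0.12 (adjusted p = 0.0209) and RAR1, a cochaperone of immune receptors, by 0.23 ± 0.06 (adjusted p = 0.00948). The CEBIP call was lost without replicate 2 or 3 at 0 h (0.36 and 0.40, adjusted p = 0.0767 and 0.069) or replicate 1 at 6 h (0.35, adjusted p = 0.0885), and the RAR1 call without replicate 3 at 0 h (0.18, adjusted p = 0.062). The receptor-like kinase gene RLK10 fell by 1.56 ± 0.40 (adjusted p = 0.0104), with the largest SE of the 11. Of the 11 genes, 10 had a mean at or above the array median in NIL-BPH9 at 6 h, against 11 in every other group. Between the uninfested lines 0 of 11 were higher and 3 lower in NIL-BPH9 (14.4% of probe sets called). These included CEBIP, lower by 0.41 ± 0.12 (adjusted p = 0.0262), and LYP4, by 0.34 ± 0.10 (adjusted p = 0.0236). At 3 h 1 was lower (7.46%), and at 6 h 0 were called between the lines (11.3%). With only the arrays compared, the CEBIP and LYP4 contrasts at 0 h were lost (adjusted p = 0.143 and 0.167).

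Some of the phosphatases that act on MAP kinases in Arabidopsis are of type 2C. Among 3 rice phosphatases of this type, BIPP2C2 rose by 0.53 ± 0.11 in NIL-BPH9 after 6 h (adjusted p = 0.00354), where PP2C05 fell by 0.33 ± 0.10 (adjusted p = 0.0311). That fall was lost with centring (-0.21, adjusted p = 0.316), without the trend (adjusted p = 0.0635) and with only the arrays compared (adjusted p = 0.0519), and without replicate 2 or 3 at 0 h (adjusted p = 0.0538 and 0.163) or replicate 1 or 3 at 6 h (adjusted p = 0.0554 and 0.16). PP2C05 moved in opposite directions in the lines after 3 h, by 0.31 ± 0.10 in 9311 (adjusted p = 0.0461) and -0.32 ± 0.10 in NIL-BPH9 (adjusted p = 0.043). The difference of these responses was -0.63 ± 0.14 (adjusted p = 0.00731), the same sign as that of MPK13. LYP4, the 1 upstream gene called in this comparison, went the other way (0.51, adjusted p = 0.022). The LYP4 call was lost in 2 of 12 fits that left out 1 array and in 3 of 7 other settings. Before infestation PP2C05 was higher in NIL-BPH9 than in 9311 by 0.35 ± 0.10 (adjusted p = 0.0257). That contrast of the uninfested lines was lost with centring (adjusted p = 0.164), without the trend (0.0576), with only the arrays compared (0.0951) and in 3 of 6 fits that left out 1 array. The change in 9311 was lost in 4 fits that left out 1 array (0.24 to 0.29, adjusted p from 0.0969 to 0.202), those without replicate 2 or 3 at 0 h or at 3 h. The change in NIL-BPH9 was lost in 5 (-0.35 to -0.23, adjusted p from 0.0675 to 0.208), all but the one without replicate 1 at 0 h. Both were also lost, at the adjusted p given, with centring (0.0883 and 0.195), without the filter (0.0711 and 0.0659), without the trend (0.0881 and 0.0834) and with the replicate block (0.0601 and 0.0566), and that in 9311 with only the arrays compared (0.106).

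Of genes reported as substrates or targets of plant MAP kinases, 6 were on the array and 5 were tested. ACS2, an ACC synthase of ethylene synthesis, rose by 0.92 ± 0.22 in 9311 (adjusted p = 0.00614) and by 0.87 ± 0.22 in NIL-BPH9 (adjusted p = 0.00992) after 3 h, when MPK3/MPK5 rose in both lines. It was also higher in uninfested NIL-BPH9 than in uninfested 9311, by 0.86 ± 0.22 (adjusted p = 0.01). NIL-BPH9 was higher too at 3 h (0.82, adjusted p = 0.0238) and at 6 h (0.71, adjusted p = 0.0393). These calls at 3 h and 6 h were lost in 6 of 6 and 5 of 6 fits that left out 1 array. The call of the 3 h rise in NIL-BPH9 was lost without replicate 3 at 0 h (0.69, adjusted p = 0.0631). That between the uninfested lines was lost without replicate 1 of NIL-BPH9 at 0 h (0.73, adjusted p = 0.0544). With only the arrays compared the calls in 9311 (adjusted p = 0.0718) and between the uninfested lines (adjusted p = 0.149) were lost. HSF24, a heat stress factor, fell by 0.53 ± 0.12 in 9311 after 3 h (adjusted p = 0.00536) and by 0.53 ± 0.12 after 6 h (adjusted p = 0.00987). The 6 h call was lost without replicate 2 of 9311 at 6 h (-0.43, adjusted p = 0.0633), with centring (0.0746) and with only the arrays compared (0.126). At 6 h HSF24 was higher in NIL-BPH9 than in 9311 by 0.39 (adjusted p = 0.0454), a call lost in 5 of 6 fits that left out 1 array.

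Over the 18 arrays, the tested genes with a symbol of their own whose values were most like those of MPK3/MPK5 were MYBS2 (Pearson r = 0.90, Spearman rho = 0.79), CPK13 (0.81 and 0.77) and CPK7 (0.73 and 0.61), of 76 genes. CPK13 and CPK7 are calcium-dependent protein kinases and MYBS2 is a MYB factor. For MPK13 they were CSB (r = 0.77), DCD1 (0.74) and CCZ1 (0.69), and for MPK14 wsl6 (0.82), RLK10 (0.79) and KIN4A (0.79). MPK6 and MPK7 were both most like IRX9L (0.87 and 0.73), and MPK3/MAP3 was most like IRX14 (0.79). In a pool widened to 2262 genes named by a synonym, chosen after seeing the data, the genes most like MPK3/MPK5 were NADP-ME2 (0.96), OsTrxh1 (0.93) and NDKR (0.92), and those most like MPK13 were HOS66 (0.90), OsSAPK9 (0.88) and AtMAP70-4 (0.88). These values describe arrays that share lines, times and scaling, and genes at the top of so many are alike by selection.

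Among the 20 nearest tested genes on the same chromosome, 3 neighbours of MPK3/MPK5 were called between the uninfested lines, 1 at 3 h and 2 at 6 h. For MPK13 the numbers were 5, 1 and 2. Over all 8 genes they ran from 3 to 9 at 0 h, from 0 to 4 at 3 h and from 2 to 4 at 6 h, beside the 14.4%, 7.46% and 11.3% of all probe sets called.

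**Figure D4:**
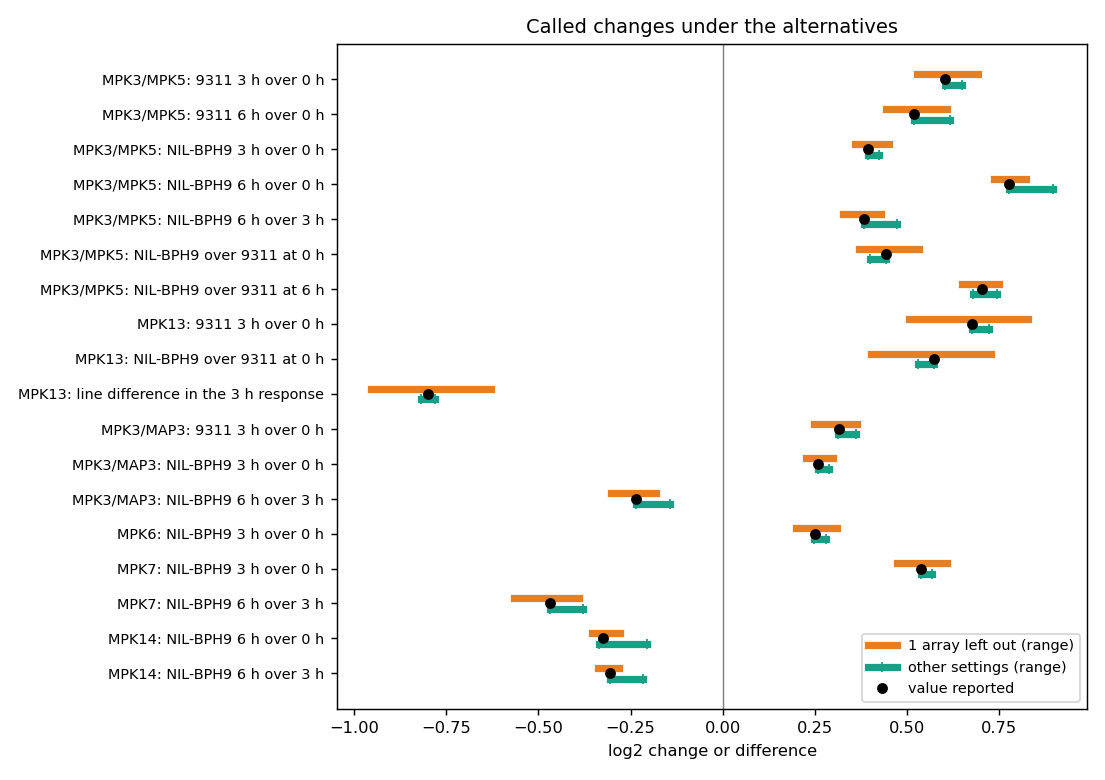
Log2 change or difference (x axis) of the 18 called pairs of a MAP kinase and a comparison (y axis), as reported (black points), over the fits that left out 1 array (orange range) and over the other settings tried (green range). None of the ranges crosses 0, and the widest under array removal are those of MPK13.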

How the data were processed

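The values analysed are deposited log2 signals, 1 for each array and probe set, from MAS5 per the submitters' processing notes (version not given in the sources used here). Arrays were Affymetrix 1-colour arrays of biotin-labelled cRNA made by 3′ amplification, per the labels' protocols. The 2% trimmed mean of the linear signal was 499.9 to 500.0 on every array, so arrays had been scaled to one level, and 24806 values were at log2 0. MAS5 averages probes within 1 array and borrows nothing from other arrays, so low signals are noisy.

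Of 57381 probe sets, 187 controls were left out of the tests. Of the 57194 rice probe sets, 22436 had 1 gene, 95 had several and 34663 were unnamed here. Names came from the platform annotation and from RefSeq's genes of assembly GCF_034140825.1 ASM3414082v1. Start positions from that assembly were used only to order neighbouring genes.

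Probe sets at or above their array's median on at least 3 arrays were tested with limma 3.58.1 in R 4.3.3: 6 group means over 18 arrays, a variance trend on intensity in eBayes, and p-values adjusted by Benjamini-Hochberg over 33094 probe sets at 0.05. There were 12 comparisons: each line at 3 h and 6 h over 0 h and at 6 h over 3 h, the lines at each time, and the line difference in each of the 3 changes. The fit was tested on simulated data. Alternatives were quantile normalization, centring on the array median, no filter, a filter on 9 arrays, no intensity trend, only the arrays compared, the replicate number as a block, and leaving out each array.

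The members and lists were chosen with earlier results of these data known. All 8 measured members are named. List genes are a selection of the rule's at most 2 largest called rises and falls per list and comparison. The like genes are the 3 with the highest Pearson r. In the lists, 3 names that belong to unrelated genes were removed. Same-numbered samples of different groups had deviations that correlated at -0.11 to 0.07 in 45 pairs, with 0 over 0.1, so the numbers were not taken to pair samples. Sequences were not used here.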

Additional observations from a re-analysis of the deposited data

Results flagged for a closer look

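The 3 h response of MPK13 differed between the lines by a test of the difference itself: -0.80 ± 0.22 on the log2 scale (NIL-BPH9 minus 9311, limma adjusted p = 0.0265), from a rise of 0.68 in 9311 and a change of -0.12 in NIL-BPH9. The 3 arrays of 9311 at 3 h were all above those at 0 h, and the NIL-BPH9 arrays of the same times overlapped. The value lay between -0.95 and -0.63 with 1 array left out, and in 6 of 12 such fits it missed the threshold. It also missed it with centring (adjusted p = 0.065) and with only the arrays compared (0.0638). Of all tested probe sets, 10.5% were called in this comparison. NIL-BPH9 was already higher at 0 h (0.57, adjusted p = 0.0188), and no line difference was called at 3 h (-0.23, adjusted p = 0.504).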

How the results depend on the processing

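Over the 96 values of a MAP kinase in a comparison, 672 alternatives kept all arrays: 647 left the call as it was, 16 lost it and 9 gained it. Another 720 left out 1 array, with 690 unchanged calls, 22 lost and 8 gained. No called value changed its sign, while uncalled ones did in 52 of these fits. Centring each array on its median left 2 of the 4 calls in NIL-BPH9 after 3 h, 1 of 2 after 6 h, 1 of 4 between 3 h and 6 h, 1 of 2 between the uninfested lines and 0 of 1 in the line difference of the 3 h response. With only the arrays compared in the fit, the calls were 1 of 3 in 9311 after 3 h, 0 of 1 after 6 h, 0 of 2 between the uninfested lines and 0 of 1 in the line difference of the 3 h response. That fit also gained MPK6 in NIL-BPH9 between 3 h and 6 h (adjusted p = 0.0402), 1 call between the lines at 3 h (MPK7, 0.0463) and 1 in the line difference of the step from 3 h to 6 h (MPK3/MPK5, 0.0281). Quantile normalization and a fit without the intensity trend each gave 1 call in 9311 between 3 h and 6 h (MPK13, adjusted p = 0.0445 and 0.0408), and the latter gained MPK13 in NIL-BPH9 after 6 h (0.0421). Quantile normalization and the stricter filter each gave 1 in the line difference of the 6 h response (MPK14, 0.0422 and 0.0459), and the stricter filter gave 1 in that of the step from 3 h to 6 h (MPK3/MPK5, 0.0446). The causes of these shifts were not tested.

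With 1 array left out, the calls ran from 1 to 2 in 9311 after 6 h, 0 to 1 between 3 h and 6 h there, 2 to 3 in NIL-BPH9 after 3 h, 2 to 4 between 3 h and 6 h there, and 1 to 2 between the uninfested lines. They ran from 0 to 1 in the line difference of the 3 h response, 0 to 3 in that of the 6 h response and 0 to 1 in that of the step from 3 h to 6 h. With the replicate number as a block the counts of called MAP kinases were as in the fit without it in all 12 comparisons (3, 1 and 0 in 9311 and 4, 2 and 4 in NIL-BPH9), and no call of a MAP kinase changed. Among the list genes named, the block ended the calls of PP2C05 in 9311 (adjusted p = 0.0601) and NIL-BPH9 (0.0566) after 3 h. Between the lines it ended the calls of RAR1 at 3 h (0.0645) and of ACS2 (0.0578) and HSF24 (0.0668) at 6 h.

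Over all probe sets, the numbers called changed by more than 1.5 times as follows. With centring they were 988 in 9311 between 3 h and 6 h (1700 as reported), 2983 in NIL-BPH9 after 3 h (4660), 3014, 1635 and 2265 between the lines at 0, 3 and 6 h (4769, 2468 and 3736), and 1676, 813 and 617 in the line differences of the 3 h response, the 6 h response and the step from 3 h to 6 h (3482, 2325 and 1449). With only the arrays compared they were 2486 and 805 in 9311 after 3 h and 6 h (4906 and 2521), 1734 between the uninfested lines, and 1221 and 2356 in the line differences of the 6 h response and of the step. Without the trend the 6 h response gave 1309. With 1 array left out, NIL-BPH9 after 6 h (6188) gave 3539 without replicate 3 at 0 h and 4076 without replicate 2 at 6 h. The line difference of the 6 h response gave 4065 without replicate 1 of 9311 at 0 h, 1424 without replicate 2 of 9311 at 6 h, 1479 without replicate 3 of NIL-BPH9 at 0 h and 1543 without replicate 2 of NIL-BPH9 at 6 h. Centring moved the share of higher calls from 56.3% to 85% in 9311 and from 44.3% to 76.8% in NIL-BPH9 after 6 h, from 57.7% to 80.9% and from 48% to 73.6% between 3 h and 6 h, from 48% to 33.8% between the uninfested lines, and from 54.5% to 69.9% and from 54.3% to 69.7% in the line differences of the 6 h response and of the step. A gene's next brightest probe set gave no value, since each gene had 1.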
